A study of Mus musculus with 6 samples.

Results

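The transcripts followed here are those of 6 transcription factors of the acinar lineage of the pancreas, *Ptf1a*, *Rbpjl*, *Nr5a2*, *Bhlha15*, *Gata4* and *Gata6*, out of 37224 Ensembl genes counted in embryonic mouse pancreata. They were taken by name, by a rule that uses no measured value but was set with earlier results of these data known, and each symbol matched 1 identifier. The samples were wild-type (wt) C57/Bl6J pancreata at 13.5 and 15.5 days post coitum (dpc), 3 per stage, with no treatment and no mutant allele in either group. Each sample pooled the pancreata of up to 3 embryos, so the spread between samples is that between pools. The whole organ was used, with its mesenchyme, vessels and nerves, and fewer cells of a type cannot be told apart from less RNA per cell.

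The acinar cell makes and stores the digestive enzymes of the pancreas, and its identity rests on a small set of DNA-binding proteins. PTF1A is a tissue-restricted basic helix-loop-helix (bHLH) protein that works in a complex with a broadly expressed bHLH protein, an E protein, and with either RBPJ, also the DNA-binding effector of Notch signalling, in progenitors or the related RBPJL in acinar cells. NR5A2 is an orphan nuclear receptor that acts with this complex at enzyme genes, BHLHA15, also called MIST1, is a bHLH protein needed for the secretory architecture of the acinar cell, and GATA4 and GATA6 are zinc finger proteins with shared roles in the pancreatic epithelium.

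Upstream sequence was taken from the RefSeq table of GRCm38.p6, which has the coordinates of mm10, and 4 of the 6 genes had an entry. It is shown for *Ptf1a*, *Rbpjl* and *Bhlha15*, whose transcripts rose by similar folds, and for *Nr5a2*, which did not pass the test. Each line runs 5′ to 3′ on the strand of the gene and ends just before the RefSeq start site, except that the *Rbpjl* line stops before the first exon of the deposited annotation, after 197 bases. Capitals mark the E-box CANNTG, the core bound by bHLH pairs, and the RBPJ core TTCCCA, which reads TGGGAA on the other strand. No E-box overlapped an RBPJ core. The windows are chr2:19445413-19445662 (plus strand) for *Ptf1a*, chr2:164402944-164403140 (plus strand) for *Rbpjl*, chr5:144190036-144190285 (plus strand) for *Bhlha15* and chr1:136960449-136960698 (minus strand) for *Nr5a2*.
Ptf1a: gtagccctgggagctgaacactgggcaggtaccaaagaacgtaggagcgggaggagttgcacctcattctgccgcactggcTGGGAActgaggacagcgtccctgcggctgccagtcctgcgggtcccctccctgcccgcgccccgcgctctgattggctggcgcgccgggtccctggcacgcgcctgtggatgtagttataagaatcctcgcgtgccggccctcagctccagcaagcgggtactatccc
Rbpjl: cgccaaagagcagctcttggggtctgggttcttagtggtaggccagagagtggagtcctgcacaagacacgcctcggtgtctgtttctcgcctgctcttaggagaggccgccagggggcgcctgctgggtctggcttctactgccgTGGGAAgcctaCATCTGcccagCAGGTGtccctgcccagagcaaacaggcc
Bhlha15: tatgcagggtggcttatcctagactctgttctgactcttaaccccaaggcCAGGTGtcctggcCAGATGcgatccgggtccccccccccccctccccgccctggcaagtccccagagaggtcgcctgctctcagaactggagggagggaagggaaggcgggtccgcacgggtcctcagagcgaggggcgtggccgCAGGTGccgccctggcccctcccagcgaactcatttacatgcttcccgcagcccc
Nr5a2: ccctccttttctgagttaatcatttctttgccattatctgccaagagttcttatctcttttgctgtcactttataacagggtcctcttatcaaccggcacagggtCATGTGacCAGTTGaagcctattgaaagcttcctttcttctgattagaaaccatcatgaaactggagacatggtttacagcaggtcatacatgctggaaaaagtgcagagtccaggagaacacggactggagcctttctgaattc

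In the 250 bases before the start site, the *Rbpjl* window held 1 RBPJ core and 2 E-boxes, CATCTG and CAGGTG, whose first bases lie 11 and 22 bases from that of the core. An E-box and an RBPJ core with first bases at most 25 bases apart, a limit chosen after this match was seen, occurred in 4.14% of the 32851 windows of the table, both strands searched. Sites of the PTF1 complex combine these elements, but a match of letters is a description and not a site. The *Bhlha15* window held 3 E-boxes and no RBPJ core, and 12.2% of all windows had at least 3 E-boxes. The *Ptf1a* window held 1 RBPJ core and no E-box, against 21.6% of all windows with an RBPJ core and 66.2% with an E-box. The *Nr5a2* window held 2 E-boxes, and 31.8% of all windows had at least 2. It also held 2 copies of the GATA motif AGATAA on the other strand, where it reads TTATCT. At least 1 copy on either strand was in 9.99% of all windows, and the share with 2 was not counted. The whole *Rbpjl* window held 1 such motif, downstream of the stretch printed. A second start site of *Nr5a2*, at 136953630 on chromosome 1, had 3 E-boxes in the same length. The NR5A motif AAGGTCA was in 4.08% of all windows and in none of the windows of these genes.

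Total counts per sample ranged from 10546028 to 16389237. The 15.5 dpc samples differed more among themselves than the 13.5 dpc samples, with a median coefficient of variation (CV) of 15.4% against 5.21% over 11341 genes with a mean of at least 100 normalised counts. Between 15.5 dpc replicates 1 and 2 the log2 difference ran with exon length (Spearman rho = -0.59 across 15578 genes, which are not independent replicates). The sum of 7 epithelial markers was 2004 to 2102 counts per 1e6 (CPM) at 13.5 dpc and 2636 to 3417 CPM at 15.5 dpc, with *Cdh1*, *Krt8* and *Krt18* called higher. The sum of 7 mesenchymal markers was 9420 to 10665 CPM at 13.5 dpc and 6778 to 10220 CPM at 15.5 dpc, with *Pdgfra* and *Twist1* called lower. Endothelial markers summed to 406 to 453 and 370 to 486 CPM, and immune markers (3 of 5 called lower) to 98.2 to 104 and 69.9 to 83.2 CPM. Neural and glial markers included 3 of 5 called lower, and of the erythroid markers the embryonic globin genes *Hbb-y*, *Hbb-bh1* and *Hba-x* were lower and *Alas2* was higher. Of 4 mesothelial markers *Wt1* was lower. *Msln*, with a mean of 10.6 and then 43.8 normalised counts, and *Krt19*, which is also a marker of duct cells, were higher. Lower calls were also made for 2 of 4 liver markers and for 2 of the 3 markers of stomach and spleen mesenchyme tested. Over all genes tested, 11.6% were called higher and 10.7% lower. The intestinal genes *Cdx1*, *Cdx2* and *Fabp2* had means of at most 2.82 normalised counts, whereas *Vil1* was called higher. The part of these shifts in the results below was not tested.

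Of the 6 factors, 4 were higher at 15.5 dpc by edgeR's quasi-likelihood test at an adjusted p of 0.05, and 0 were lower, also at an unadjusted p under 0.05 and with DESeq2. Over the 15578 genes tested, 22.3% were called in either direction, 11.6% higher and 10.7% lower. The 4 that rose were *Ptf1a*, *Rbpjl*, *Bhlha15* and *Gata4*, and all were also past the count, fold and adjusted p limits of the study's methods, which 9.88% of the genes passed. For 5 of the 6, early and late samples did not overlap, against 46.4% of all genes, 22.8% in the higher and 23.6% in the lower direction. The median log2 fold change of the 6 was 1.61, against -0.01 over all genes tested.

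**Figure D1:**
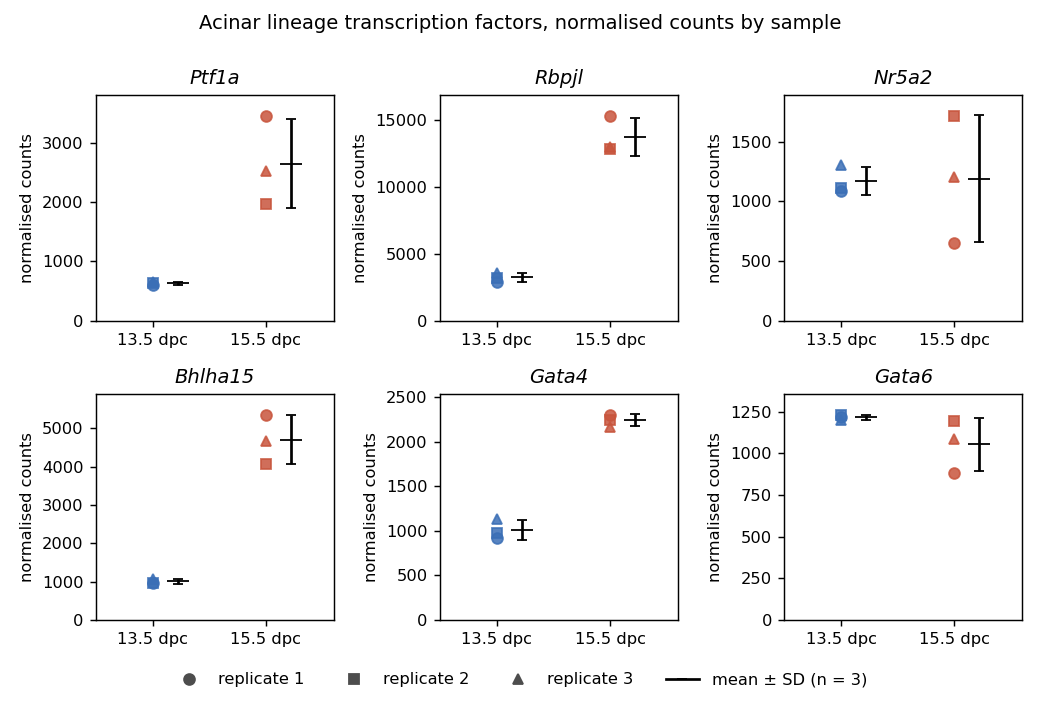
Normalised counts (vertical axes, linear from 0) of the 6 factors at 13.5 dpc (blue) and 15.5 dpc (red), with 1 symbol per sample and the mean ± SD (n = 3) beside them. *Ptf1a*, *Rbpjl*, *Bhlha15* and *Gata4* have all 15.5 dpc samples above all 13.5 dpc samples, *Nr5a2* spreads from 652 to 1720.0 at 15.5 dpc, and *Gata6* lies slightly lower at 15.5 dpc.

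*Ptf1a* (ENSMUSG00000026735), required for the pancreas to form, lies on chromosome 2 of mm10 from 19445663 to 19447501 with 2 exon blocks. It had 599, 640 and 653 normalised counts in replicates 1, 2 and 3 at 13.5 dpc and 3454, 1963 and 2516 at 15.5 dpc. The stages were well apart, but replicate 1 was 1.76 times as high as replicate 2 at 15.5 dpc, whereas the 13.5 dpc samples lay within 1.09 times of each other. The log2 fold change was 2.07 (standard error 0.20, adjusted p = 0.00101, edgeR), a 95% interval of 3.03 to 5.81 times. It was 1.83 without 15.5 dpc replicate 1 and 2.26 without 15.5 dpc replicate 2. On the opposite strand, 609 of its 1508 exon bases are also exon of *Ptf1aos*, which had 2 to 6 counts per sample.

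*Rbpjl* (ENSMUSG00000017007), the acinar counterpart of *Rbpj*, lies on chromosome 2 from 164403141 to 164415448 with 10 exon blocks. It had 2924, 3185 and 3597 normalised counts at 13.5 dpc and 15317, 12835 and 12962 at 15.5 dpc. The late samples were all above the early ones, and their CV was 10.2%, below that of *Ptf1a* at 28.5%. The log2 fold change was 2.08 (standard error 0.12, adjusted p = 0.000323, edgeR), a 95% interval of 3.46 to 5.18 times, and 153 of the genes tested had a larger one. *Matn4*, an extracellular matrix gene on the opposite strand, shares 149 of the 5732 exon bases and had a log2 fold change of 0.39 (adjusted p = 0.102, edgeR), or 0.51 without 15.5 dpc replicate 2 (adjusted p = 0.0137, edgeR).

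*Bhlha15* (ENSMUSG00000052271), on chromosome 5 from 144190286 to 144194441 with 2 exon blocks, had the largest fold change of the 6 with all samples. Replicates 1, 2 and 3 had 959, 971 and 1074 normalised counts at the early stage and 5360, 4078 and 4679 at the late one. The lowest late sample was well above the highest early one. The log2 fold change, 2.23 ± 0.13 (standard error; adjusted p = 0.000309, edgeR), had a 95% interval of 3.83 to 5.77 times, which overlapped widely with those of *Ptf1a* and *Rbpjl*, and 130 of the genes tested had a larger one.

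*Gata4* (ENSMUSG00000021944), on chromosome 14 from 63198922 to 63271692 with 10 exon blocks, rose by less. It had 915, 977 and 1135 normalised counts at 13.5 dpc and 2301, 2243 and 2167 at 15.5 dpc. Its late samples were the closest of the 6 factors, with a CV of 3.01%, smaller than that of all but 5.11% of the genes compared. The log2 fold change was 1.15 (standard error 0.11, adjusted p = 0.000907, edgeR), and its 95% interval of 1.87 to 2.63 times lay below those of *Ptf1a*, *Rbpjl* and *Bhlha15*.

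*Gata6* (ENSMUSG00000005836), the other GATA factor, lies on chromosome 18 from 11052510 to 11085635 with 7 exon blocks. The early samples had 1218, 1232 and 1202 normalised counts and the late samples 883, 1193 and 1087. All late samples were below all early samples, but 15.5 dpc replicate 2 was close to them. The log2 fold change, -0.21 ± 0.12 (standard error; adjusted p = 0.246, edgeR), did not pass the test, with a 95% interval of 0.711 to 1.06 times. It was -0.09 without 15.5 dpc replicate 1 and -0.29 without 15.5 dpc replicate 2 (adjusted p = 0.0556, edgeR).

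*Nr5a2* (ENSMUSG00000026398), on chromosome 1 from 136843584 to 136960427 with 10 exon blocks, had nearly equal means and the widest spread. The early samples had 1091, 1114 and 1308 normalised counts, and the late samples had 652, 1720.0 and 1203. The lowest and the highest of the 6 values were thus both at 15.5 dpc, and the stages overlapped. The log2 fold change was 0.03 (standard error 0.31, adjusted p = 0.955, edgeR), with a 95% interval of 0.621 to 1.67 times. A change in either direction within that interval was not excluded. Without 15.5 dpc replicate 1 the log2 fold change was 0.32 (adjusted p = 0.136, edgeR) and without 15.5 dpc replicate 2 it was -0.32 (adjusted p = 0.259, edgeR). The CV at 15.5 dpc was 44.8%, against 10.2% at 13.5 dpc. The lowest raw count of *Nr5a2*, 471, carries a counting error of 4.61%, which does not include the spread between pools.

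**Figure D2:**
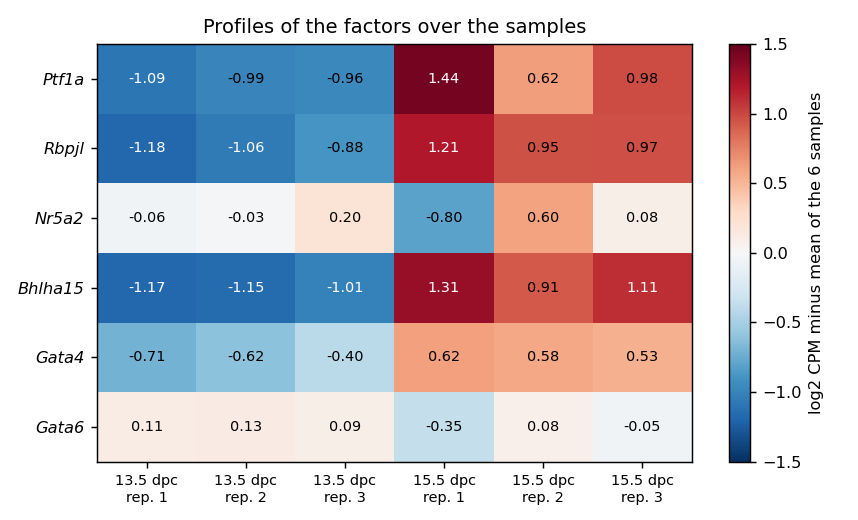
Profile of each factor over the 6 samples, as log2 CPM minus the mean of the gene over all samples (colour scale and printed values). *Ptf1a*, *Rbpjl* and *Bhlha15* are highest in 15.5 dpc replicate 1, where *Nr5a2*, at -0.80, and *Gata6*, at -0.35, are lowest.

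The factors did not vary alike among the 15.5 dpc samples. *Ptf1a*, *Rbpjl* and *Bhlha15* were in the order replicate 1, 3 and 2 from high to low, and *Nr5a2* and *Gata6* in the opposite order. The summed secretory genes and epithelial markers had the order of *Ptf1a*, and the summed mesenchymal markers that of *Nr5a2*. Single markers did not all follow, since 5 of 7 epithelial markers had the order of *Ptf1a* but *Cdh1* and *Esrp1* that of *Nr5a2*, and 5 of 7 mesenchymal markers had the order of *Nr5a2* but *Vim* that of *Ptf1a*. Between replicates 1 and 2 the log2 CPM difference was 0.81 for *Ptf1a*, 0.26 for *Rbpjl*, 0.39 for *Bhlha15*, 0.04 for *Gata4*, -0.43 for *Gata6* and -1.40 for *Nr5a2*. The factors have 1508 (*Ptf1a*) to 5732 (*Rbpjl*) exon bases, with 3836 in *Nr5a2*, and the median over all genes tested is 3471. The part of exon length in these differences was not tested. With the trend of each library with gene length removed, the log2 fold change was 1.84 for *Ptf1a*, 2.25 for *Rbpjl*, 2.26 for *Bhlha15*, 1.20 for *Gata4*, 0.07 for *Nr5a2* and -0.20 for *Gata6*, and the calls were the same.

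Levels were compared between genes per exon length, as reads per kilobase of exon per 1e6 reads of the effective library size (RPKM). At 13.5 dpc *Rbpjl* came first at 44.7 ± 4.68 RPKM (SD, n = 3), *Ptf1a* next at 33.1 ± 1.48 RPKM and *Gata6* after it at 30.2 ± 0.376 RPKM. These did not overlap with their neighbours. *Nr5a2* (24.2 ± 2.46 RPKM), *Bhlha15* (22.7 ± 1.43 RPKM) and *Gata4* (20.5 ± 2.30 RPKM) followed with overlapping ranges, although that order held within each of the 3 samples.

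At 15.5 dpc the levels were further apart. *Rbpjl* was at 189 ± 19.3 RPKM, *Ptf1a* at 139 ± 39.6 RPKM and *Bhlha15* at 107 ± 14.5 RPKM, with overlapping ranges between neighbours and this order within each sample. *Gata4* stood apart from both neighbours at 45.3 ± 1.37 RPKM. *Gata6* at 26.1 ± 3.91 RPKM and *Nr5a2* at 24.6 ± 11.0 RPKM overlapped, and *Gata6* was the higher in 2 of 3 samples. *Bhlha15* had moved from below *Gata6* to above it in all samples.

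**Figure D3:**
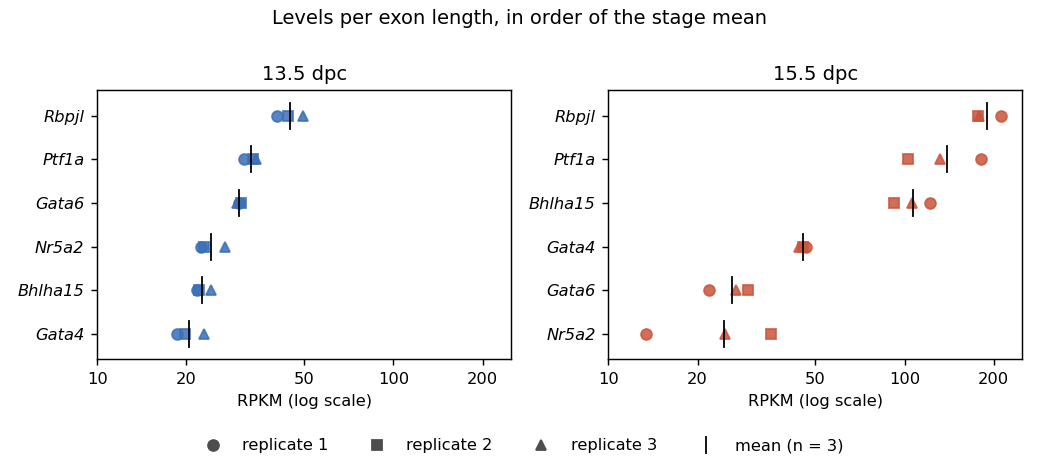
Levels of the factors in RPKM (log axis) at 13.5 dpc (left) and 15.5 dpc (right), ordered by the stage mean (black line), with 1 symbol per sample. The early values lie between 18.5 and 49.7 RPKM, and the late values between 13.4 and 211 RPKM.

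A ratio of 2 genes within a sample needs no scaling for library size, and 4 such ratios were compared, each per exon base. The trend of the libraries with gene length was not removed from these ratios, and its part in them was not tested. *Rbpjl* was 5.60, 6.12 and 7.66 times *Rbpj* at 13.5 dpc and 38.9, 30.5 and 33.8 times *Rbpj* at 15.5 dpc. Per exon base the *Rbpjl* transcript was the more abundant in all samples of both stages, and the mean log2 ratio rose from 2.68 to 5.10. *Gata4* was 0.614, 0.649 and 0.773 times *Gata6* at 13.5 dpc and 2.13, 1.54 and 1.63 times *Gata6* at 15.5 dpc, so that *Gata6* was the more abundant of the GATA pair in all early samples and *Gata4* in all late samples.

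*Nr5a2* was 0.716, 0.685 and 0.788 times *Ptf1a* at 13.5 dpc and 0.0742, 0.344 and 0.188 times at 15.5 dpc, a mean log2 change of -2.11 with the largest spread of the 4 ratios at 15.5 dpc. Leaving out 15.5 dpc replicate 1 gave -1.52 and leaving out replicate 2 gave -2.62. The ratio of *Bhlha15* to *Ptf1a* was 0.691, 0.655 and 0.710 at 13.5 dpc and 0.670, 0.896 and 0.803 at 15.5 dpc, and its stages overlapped. The exact permutation test (two-sided) gave p = 0.1 for the other ratios, the smallest that 3 samples against 3 allow, or 0.133 adjusted over the 4 ratios. For *Bhlha15* to *Ptf1a* the exact permutation test gave p = 0.3, with a mean log2 change of 0.19.

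**Figure D4:**
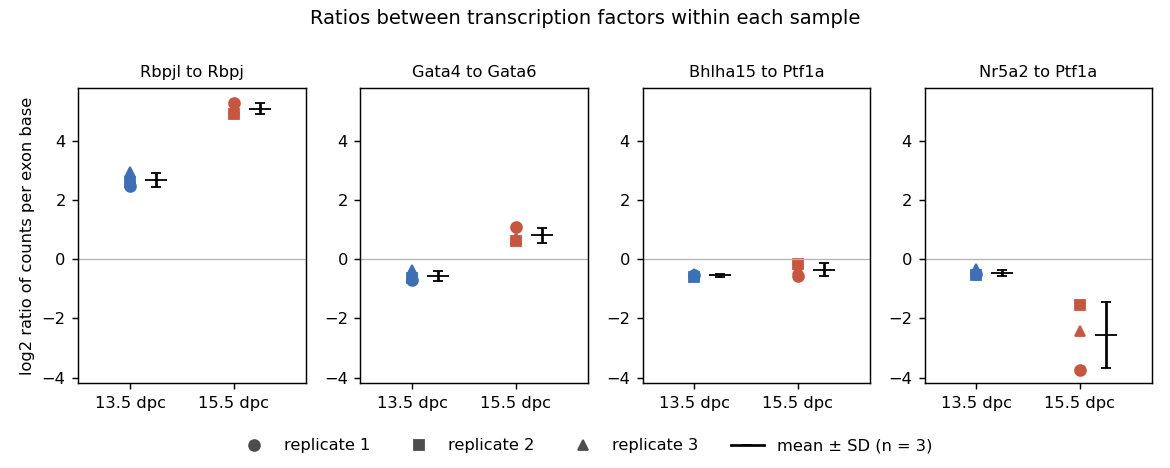
Ratio of 2 transcripts within each sample as log2 of counts per exon base (vertical axes), with 1 symbol per sample and the mean ± SD (n = 3). The ratio of *Rbpjl* to *Rbpj* goes from a mean of 2.68 to 5.10 and that of *Gata4* to *Gata6* from -0.57 to 0.81, whereas that of *Bhlha15* to *Ptf1a* overlaps between the stages.

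Each factor was also set against the mean log2 count of the 7 epithelial markers in the same sample. *Bhlha15* rose by 1.75 on this log2 scale, *Rbpjl* by 1.61, *Ptf1a* by 1.56 and *Gata4* by 0.68, with no overlap between the stages. The markers themselves had log2 fold changes from -0.14 (*Cldn6*) to 1.17 (*Krt18*), so that *Gata4*, at 1.15, did not exceed *Krt18* and *Gata6*, at -0.21, was near *Cldn6*, and these values depend on the markers used. *Bhlha15* was the most even in the late samples, at 1.04, 1.03 and 1.08 times the epithelial mean against 0.309, 0.299 and 0.330 times in the early ones. *Gata6* went from 0.392, 0.380 and 0.369 times to 0.172, 0.303 and 0.251 times, a log2 change of -0.69 with no overlap. For these 5 the exact permutation test gave p = 0.1, the smallest possible, or 0.12 adjusted over the 6 factors. The change of *Gata6* was -0.46 without 15.5 dpc replicate 1. *Nr5a2* changed by -0.55, with overlapping stages (exact permutation test, p = 0.5), and leaving out 15.5 dpc replicate 1 or 2 gave -0.067 or -0.96.

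The partners and inhibitors of the bHLH factors went both ways. Of 8 genes tested, 1 was higher and 2 lower at the late stage, against 11.6% and 10.7% of all genes tested, and the median log2 fold change was -0.19. *Tcf3*, which encodes E proteins that pair with PTF1A, went from 5171, 4841 and 5098 normalised counts to 3367, 3534 and 3502, a log2 fold change of -0.54 (adjusted p = 0.0051, edgeR). The late samples were all below the early ones. *Rbpj* had 530.3, 528 and 476 normalised counts at 13.5 dpc and 400.0, 427 and 389 at 15.5 dpc (log2 fold change -0.33, adjusted p = 0.0481, edgeR). This call was lost with DESeq2 size factors (adjusted p = 0.0538), without a filter (0.0685), with the replicate block (0.102), with the length trend removed (0.193), and when any 13.5 dpc sample or 15.5 dpc replicate 3 was left out (0.0969 to 0.179).

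The other E protein genes, *Tcf4* (log2 fold change -0.44, adjusted p = 0.0586, edgeR) and *Tcf12* (-0.64, adjusted p = 0.0525, edgeR), did not pass the test. Both passed with DESeq2 (adjusted p = 0.0377 and 0.0183), upper quartile scaling (0.0474 and 0.045), library size only (0.0381 and 0.0399), without 15.5 dpc replicate 1 (0.0455 and 0.0151) and without 15.5 dpc replicate 2 (0.00252 and 0.00269). *Tcf12* also passed without a filter (0.0371), with the replicate block (0.0457) and with the length trend removed (0.0212). Among the ID genes, whose products bind E proteins and keep them off DNA, *Id2* rose from 1279, 1200.0 and 1202 to 2455, 1603 and 1833 normalised counts (log2 fold change 0.68, adjusted p = 0.0225, edgeR). Its call was lost when any 13.5 dpc sample or 15.5 dpc replicate 3 was left out (adjusted p = 0.0672 to 0.095). *Id1*, *Id3* and *Id4* did not pass the test, but *Id1* passed it without 15.5 dpc replicate 2 (log2 fold change 0.38, adjusted p = 0.0289, edgeR).

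Other GATA genes were sparse beside *Gata4* and *Gata6*. *Gata1*, *Gata3* and *Gata5* had at most 29.5 normalised counts in any sample and *Gata2* had 79.7 to 111, and none of these was called. With library size only *Gata5* was called lower (adjusted p = 0.0428, edgeR), and without 15.5 dpc replicate 2 so was *Zfpm2*, the gene of a related cofactor (log2 fold change -0.78, adjusted p = 0.0133, edgeR). *Zfpm1*, which encodes the GATA cofactor FOG1, had 1379, 1356 and 1442 normalised counts at 13.5 dpc and 1657, 1961 and 1922 at 15.5 dpc, and was the 1 gene called of the 6 in this list, against 22.3% of all genes tested (log2 fold change 0.41, adjusted p = 0.0248, edgeR). Its call was lost with library size only (adjusted p = 0.272), with the replicate block (0.0602), and when any 13.5 dpc sample or 15.5 dpc replicate 3 was left out (0.0871 to 0.12).

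The further acinar regulators *Xbp1*, *Nr0b2* and *Myc* were called higher, as were 11.6% of all genes tested. *Xbp1*, a transcription factor of the unfolded protein response that acts upstream of *Bhlha15* in secretory cells, went from 3128, 3395 and 3348 to 9380.2, 6262 and 7829 normalised counts, a log2 fold change of 1.25 (adjusted p = 0.00212, edgeR). *Nr0b2*, which encodes a corepressor of NR5A2, rose by 1.02 from 109.7 to 138 normalised counts per sample to 191 to 322 (adjusted p = 0.014, edgeR), and *Myc* by 0.38 (adjusted p = 0.0433, edgeR). The calls of *Nr0b2* and *Myc* were lost when any 13.5 dpc sample or 15.5 dpc replicate 3 was left out (adjusted p = 0.0512 to 0.0676 and 0.127 to 0.172), and that of *Myc* also with upper quartile scaling (0.0538), library size only (0.21), no filter (0.0666) and the replicate block (0.0948).

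**Figure D5:**
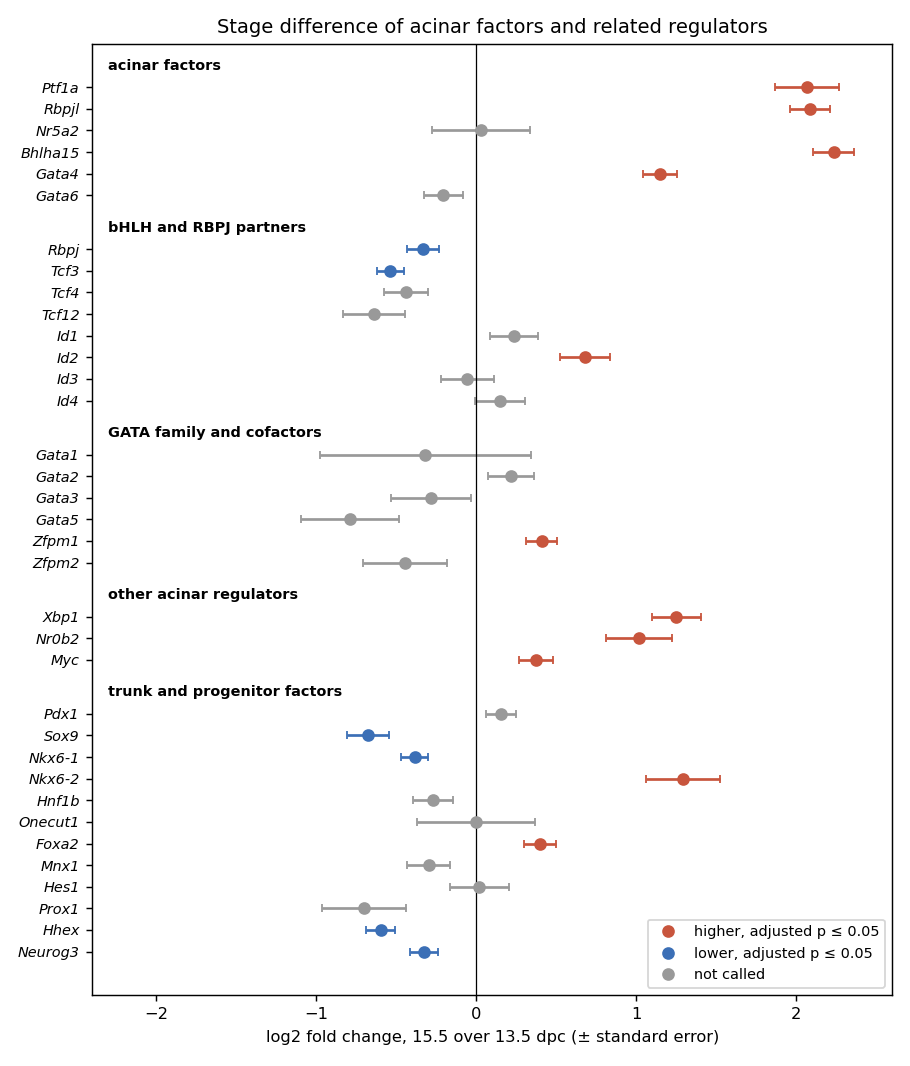
Log2 fold change of each gene between 15.5 and 13.5 dpc (horizontal axis) with its standard error, for the 6 factors and genes of 4 lists of related regulators, coloured by the call at an adjusted p of 0.05. *Ptf1a*, *Rbpjl* and *Bhlha15* lie at 2.07 to 2.23, above every other gene drawn, the nearest of which are *Nkx6-2* at 1.29 and *Xbp1* at 1.25.

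The factors of trunk and multipotent progenitors went both ways. Of 12 tested, 2 were higher and 4 lower, against 11.6% and 10.7% of all genes tested, and over the alternatives 0 to 3 were higher and 1 to 6 lower. Their median log2 fold change was -0.29, and *Foxa1*, with at most 6.00 normalised counts, did not pass the filter on low counts. *Sox9*, a progenitor and duct factor, had a log2 fold change of -0.67 (adjusted p = 0.0123, edgeR), *Hhex* of -0.60 (adjusted p = 0.00458), *Nkx6-1*, which opposes *Ptf1a* in the choice between trunk and tip, of -0.39 (adjusted p = 0.0178), and *Neurog3*, the endocrine progenitor factor, of -0.33 (adjusted p = 0.0372). The higher genes were *Nkx6-2* (1.29, adjusted p = 0.00883) and *Foxa2* (0.40, adjusted p = 0.0317). The calls of *Sox9*, *Nkx6-1*, *Neurog3* and *Foxa2* were lost when any 13.5 dpc sample or 15.5 dpc replicate 3 was left out (adjusted p = 0.0545 to 0.157 over these genes), and that of *Nkx6-2* without 13.5 dpc replicate 3 (0.0501). The block ended those of *Nkx6-1*, *Neurog3* and *Foxa2* (0.061, 0.09 and 0.0729), and library size only that of *Foxa2* (0.159). The difference between these genes and the acinar factors was not tested.

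The 15 listed secretory genes, which include known targets of PTF1 and NR5A2, were all called higher, against 11.6% of all genes tested. Over the alternatives 13 to 15 of them were called higher, and their median log2 fold change with the main test was 3.39. Their summed level was 7837 to 9395 CPM at 13.5 dpc and 52010.0 to 114805 CPM at 15.5 dpc. *Cpa1*, a carboxypeptidase gene and early marker of the acinar tip, had a log2 fold change of 2.04. *Cel*, the bile salt-dependent lipase, had 3383, 4082 and 4308 normalised counts at 13.5 dpc and 38779, 23257 and 28952 at 15.5 dpc (log2 fold change 2.95, adjusted p = 0.000472, edgeR). At the upper end were *Cpb1* (6.15), *Cela2a* (6.17) and *Cela3b* (6.41), with 73.8 to 147 normalised counts per sample at 13.5 dpc. *Pnlip*, a lipase gene, had a mean of 6.43 normalised counts at 13.5 dpc, and its call (adjusted p = 0.0421, edgeR) was lost without 13.5 dpc replicate 1 or 2 or 15.5 dpc replicate 1 or 3 (0.055 to 0.137). A gene as sparse as *Pnlip* at 13.5 dpc can pass the filter on low counts through its 15.5 dpc samples alone, where it is higher. Elastase and amylase genes share sequence, and how reads were divided among them is uncertain.

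Of 5 genes listed as targets of BHLHA15, 4 were higher and 1 lower, where the shares over all genes tested were 11.6% and 10.7%. *Rab3d*, a small GTPase of the zymogen granule, went from 805, 826 and 919 normalised counts to 3730 normalised counts in 15.5 dpc replicate 1, 2794 in replicate 2 and 3265 in replicate 3, a log2 fold change of 1.94 (adjusted p = 0.000374, edgeR). *Rab26*, a related GTPase, rose by 1.85, *Gjb1*, a gap junction connexin, by 1.32 and *Copz2*, a coat protein subunit, by 1.09 (adjusted p = 0.0201, edgeR). *Atp2c2*, a calcium pump of the secretory pathway, went from 116, 124 and 111 to 76.1, 62.4 and 63.0 normalised counts (log2 fold change -0.80, adjusted p = 0.00918, edgeR). The *Copz2* call was lost when any 13.5 dpc sample or 15.5 dpc replicate 3 was left out (adjusted p = 0.0613 to 0.0881), and the *Atp2c2* call without 13.5 dpc replicate 1 or 2 or 15.5 dpc replicate 3 (at most 0.0539, and in each case just above the threshold).

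The genes whose profile over the 6 samples was most like that of each factor were taken from 11335 genes with a mean of at least 100 normalised counts, by the root mean square (RMS) difference of centred log2 CPM. Closest to *Ptf1a* were *Dhx34*, at an RMS difference of 0.039, *Herpud1* and *Clu*. Closest to *Rbpjl* were *Lgals12*, at 0.0502, *Tob1* and *Rab3d*. Closest to *Bhlha15* were *Gatm*, at 0.0641, *Gfi1* and *Serpina6*, and closest to *Gata4* were *Wdtc1*, at 0.0587, *Ccng1* and *Mknk1*.

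For *Nr5a2* the closest profiles were those of *Gm6768*, at 0.0255, *Pik3ap1*, at 0.0368, and *Jcad*. *Pik3ap1*, a signalling adaptor, had 788, 821 and 1018 normalised counts at 13.5 dpc and 479, 1237 and 890.3 at 15.5 dpc, and was thus also low in 15.5 dpc replicate 1 and high in replicate 2. *Gm6768* is annotated as a processed pseudogene, and its count is uncertain where reads also match its parent. For *Gata6* they were *Mtpn*, at 0.0144, *Impad1* and *Brd8*. Over 6 samples and 2 stages many genes can have nearly equal profiles, and the likeness is a description.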

How the data were processed

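RNA from whole wt pancreata was sequenced in 3 samples per stage. The authors made strand-specific libraries of poly(A) RNA, sequenced them from a single end, aligned the reads to mm10 with GSNAP and counted unique alignments on an Ensembl annotation. The deposited values are raw counts from featureCounts 1.4.6, as the submitters' processing notes name it, beside an exon length per gene. Of 37224 identifiers 35449 matched a symbol. Whether counting used strand was read from the table. Of 146 genes contained in exons of a gene on the other strand, 29 had 10 counts or more, with a highest total of 8269. Of 320 contained in exons on their own strand, 0 did, with a highest total of 0. The table thus behaved as counted by strand.

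Counts were filtered with filterByExpr, normalised with TMM (factors 0.847 to 1.08) and tested with edgeR 4.0.16 in R 4.3.3 (quasi-likelihood, no covariates, Benjamini-Hochberg adjustment over 15578 genes). Normalised counts were scaled to a common effective library size, and log2 CPM used a prior count of 2. RPKM was computed here. Alternatives were DESeq2 1.42.0, other scalings and filters, a replicate block, leaving out genes above 1% of counts, removal of a length trend (lowess span 0.5) and leaving out each sample. The closest pair of replicates differed by a chi-square of 1.61 per gene, and no samples were merged. On data simulated for 15.5 against 13.5 dpc over 15414 genes, 186 of 200 changed genes were recovered with 5 false calls. The simulation gave all genes and samples the same dispersion and no length trend. These counts therefore do not cover the wider spread at 15.5 dpc. Named genes were the 6 factors, the listed genes and the 3 nearest profiles of each factor. Some listed genes are not reported here. Overlapping genes and markers were named for overlap and composition. The factors and lists were chosen with earlier results of these data known.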

Additional observations from a re-analysis of the deposited data

How the results depend on the processing

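For the 6 factors, 84 of 90 recomputed log2 fold changes kept sign and call, and the other 6 were sign changes of *Nr5a2*, which no alternative called. Its value was -0.0020 with upper quartile scaling, -0.15 with library size only, -0.072 with the replicate block and -0.32 to 0.32 when a sample was left out, and the cause was not tested. Over all alternatives *Ptf1a* ranged from 1.83 to 2.26, *Rbpjl* from 1.86 to 2.25, *Bhlha15* from 2.01 to 2.34, *Gata4* from 0.93 to 1.24 and *Gata6* from -0.41 to -0.09. Library size only moved the median of all genes from -0.01 to -0.22, and it split the calls into 1133 higher and 2952 lower, against 1805 and 1662. The count of genes called was 3467, or 1539 under the limits of the study's methods, 2676 with the replicate block, 5104 with the length trend removed (2812 of them higher), and 1235 to 7620 when a sample was left out (7620 without 15.5 dpc replicate 2, 1438 without 15.5 dpc replicate 3, and 1235, 1331 and 1402 without 13.5 dpc replicates 1, 2 and 3). Samples with the same replicate number had correlations of deviations of 0.22, -0.22 and 0.04. These were not compared with other pairs, so whether the numbers pair samples was not tested. Against *Epcam* alone, *Rbpjl* rose by 1.76 and *Bhlha15* by 1.90. With library size only, the mean level at 13.5 dpc was 35.6 RPKM for *Ptf1a*, 24.4 for *Bhlha15* and 32.5 for *Gata6*, and *Gata4* at 15.5 dpc was at 42.1 RPKM. Among 68 other named genes, 892 of 1014 values were unchanged, with 62 calls lost, 27 gained and 33 signs turned, all of genes without a call. With the length trend removed these were *Id1* (-0.031), *Id4* (-0.026), *Onecut1* (0.046), *Hes1* (-0.12), *Brd8* (0.055), *Gm6768* (0.018) and *Jcad* (0.13). With library size only they were *Id4* (-0.070), *Pdx1* (-0.055) and *Hes1* (-0.21), and with DESeq2 size factors *Onecut1* (0.012), *Gm6768* (0.012) and *Pik3ap1* (0.0054). DESeq2 turned *Onecut1* (0.00023) and *Gm6768* (0.0011), and *Hes1* was also turned by upper quartile (-0.014), no filter (-0.0088) and the replicate block (-0.013). When a sample was left out, *Id3* ranged from -0.26 to 0.10, *Gata1* from -1.36 to 0.18, *Onecut1* from -0.50 to 0.32, *Hes1* from -0.21 to 0.20, *Gm6768* from -0.35 to 0.28, *Jcad* from -0.31 to 0.22 and *Pik3ap1* from -0.34 to 0.28. Depth limits *Gata1*, *Gata3*, *Gata5* and *Foxa1*, but the lowest count of the 6 factors was 471.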
